A study of Homo sapiens with 60 samples.

Results

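The 45 genes described here encode the machinery of mitosis: the cyclins and kinase that start it, the spindle and its motors, the kinetochores, the checkpoint, and the proteins that divide the cell. They were taken by gene symbol from a list of mitosis and spindle genes, not by a cut on their measured values. Earlier results of these data were known when the list was chosen. All 45 were found among the 60675 genes of the count table. All 45 were also among the 16093 genes that passed the filter on low counts. They were measured by mRNA sequencing in HepG2, a human liver cancer cell line that divides in culture and keeps many hepatocyte genes active. Cells had been treated for 24 h with hot-water extracts of medicinal herbs, each at 20, 100 and 500 µg/mL, and control cells received vehicle, labelled 0.1% DMSO. The single herbs were Cimicifugae Rhizoma, Aconiti Lateralis Radix Preparata (processed aconite root), Bupleuri Radix and Citri Unshius Pericarpium (mandarin peel). The herbal mixtures were Banhasasim-tang, Yijung-tang and Bojungikgi-tang. Every dose of Cimicifugae, Aconiti, Bupleuri, Citri, Banhasasim-tang and Yijung-tang had 3 libraries, as had vehicle, and each dose of Bojungikgi-tang had 1. The comparison asked of each extract was what its highest dose did relative to its lowest, and what each did relative to vehicle. The labels do not say whether replicate libraries came from separate cultures, so p-values measure only the spread between libraries, which may be technical.

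Mitosis begins when cyclin A and cyclin B activate CDK1, which the CDC25 phosphatases switch on. Spindle microtubules then capture chromosomes at their kinetochores, motors and crosslinkers align them, and a checkpoint holds the cell until each chromosome is attached. The anaphase-promoting complex with CDC20 then marks cyclin B and securin for destruction, sister chromatids part, and the cell divides. Transcripts of most of these genes are kept low in resting cells and peak in G2 and mitosis, under B-MYB, FOXM1 and the MuvB complex, so in proliferating liver cancer cells they are widely used as markers of division. 

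Expected counts summed to 17598646 to 30451640 per library. Markers of the labelled cell type were present in all 60 libraries: 9 hepatocyte genes summed to 35918 to 43846 CPM (read counts scaled to library size, with TMM). Fibroblast markers summed to 6.53 to 16.5 CPM and endothelial markers to 2.40 to 6.72 CPM. One library stood apart. Vehicle replicate 2 held blood-cell transcripts: PTPRC, the leukocyte surface marker CD45, was at 6.95 CPM in it and at most 0.046 CPM in the other 59 libraries, and the T cell gene CD3E at 5.49 CPM and at most 0.049 CPM. HBA2, a haemoglobin gene singled out after its values were seen, was at 106 CPM there and at most 0.138 CPM elsewhere. Its summed level of the 45 mitosis genes was 4811 CPM, close to 4839 and 4852 CPM in the other vehicle libraries. Results that rest on vehicle are therefore given with and without it. The comparisons of doses within an extract do not use vehicle.

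The upstream sequence of members that move together is shown first, because this gene class is known for a shared promoter layout: a cell cycle genes homology region (CHR), bound by MuvB, close to the start site, and CCAAT boxes, bound by NF-Y, a little further upstream. RefSeq windows from 250 bases before to 50 bases after the start (GRCh38.p14) were found for 39 of the 45 genes, all but AURKA, BIRC5, FOXM1, TPX2, TTK and UBE2C. Only the first listed window of each gene was used, and 6 members have more than 1 start. The CHR letters TTTGAA or TTCGAA, on either strand, occurred in 30 of the 39 windows (76.9%), against 16.6% of all 27305 RefSeq promoter windows taken in the same way, 1 per gene. CCAAT, on either strand, occurred in 30 windows (76.9%), against 35.7% of all, and both motifs together in 25 (64.1%), against 6.58%. In 1 of the 39 windows, that of MKI67, a TTTGAA shares a base with a CCAAT on the other strand. The 5 windows below run from 150 bases before to 30 bases after the start, 5′ to 3′ along the gene. Capitals mark either motif. A CCAAT box on the other strand reads ATTGG. PLK1 (chr16:23678739-23678918, plus strand), CCNB2 (chr15:59104996-59105175, plus strand) and PRC1 (chr15:90994506-90994685, minus strand) show the motif pair. KIF20A (chr5:138178962-138179141, plus strand) is the member that fell most with Aconiti, and its window holds 2 CCAAT motifs on the minus strand and neither form of the CHR letters. CDC25B (chr20:3786801-3786980, plus strand) is the member that fell least with Aconiti, and its window holds none of the motifs. ECT2, the member that fell least with Cimicifugae, has both motifs in its window, which is not printed. Whether motifs go with the size of the fall was not tested. A match describes letters, not binding.
PLK1: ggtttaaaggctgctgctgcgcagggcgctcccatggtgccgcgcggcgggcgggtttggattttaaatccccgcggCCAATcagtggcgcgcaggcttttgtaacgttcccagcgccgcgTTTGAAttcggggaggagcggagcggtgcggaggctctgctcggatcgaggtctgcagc
CCNB2: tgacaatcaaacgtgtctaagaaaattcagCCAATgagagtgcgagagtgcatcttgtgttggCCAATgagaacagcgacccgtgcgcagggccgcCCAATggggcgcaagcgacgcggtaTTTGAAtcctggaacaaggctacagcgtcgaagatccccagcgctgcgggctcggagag
PRC1: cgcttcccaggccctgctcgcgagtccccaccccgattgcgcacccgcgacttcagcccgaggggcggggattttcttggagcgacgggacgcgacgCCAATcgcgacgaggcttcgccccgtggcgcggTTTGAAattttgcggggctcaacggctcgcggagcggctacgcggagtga
KIF20A: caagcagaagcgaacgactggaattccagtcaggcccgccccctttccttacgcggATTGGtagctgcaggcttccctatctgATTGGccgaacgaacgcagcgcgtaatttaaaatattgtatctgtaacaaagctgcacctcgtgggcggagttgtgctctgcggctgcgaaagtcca
CDC25B: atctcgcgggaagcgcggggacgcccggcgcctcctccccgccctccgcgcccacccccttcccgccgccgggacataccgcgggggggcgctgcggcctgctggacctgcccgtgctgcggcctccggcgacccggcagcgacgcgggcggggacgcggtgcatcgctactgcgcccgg
In PLK1 the TTTGAA spans positions -29 to -24 relative to the annotated start, the same positions as in CCNB2, and in PRC1 it spans -20 to -15. CCNB2 carries 4 CCAAT motifs in its full window, of which 3 are in the stretch printed.

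The mitosis genes fell as a block with the highest dose of Cimicifugae and of Aconiti, fell less with Bupleuri, fell in part with Banhasasim-tang, and did not fall with Citri or Yijung-tang. Summed over the 45 genes, the level at 500 µg/mL was 2888 ± 45 CPM with Cimicifugae and 3180 ± 13 CPM with Aconiti, against 4879 ± 40 CPM and 4948 ± 70 CPM at 20 µg/mL of the same extracts (SD, n = 3 each). These sums at 500 µg/mL were 59.2% and 64.3% of those at 20 µg/mL. With Bupleuri the sum was 4020 ± 40 CPM at 500 µg/mL, against 4797 ± 43 CPM at 20 µg/mL (83.8%). With Banhasasim-tang it was 4501 ± 45 CPM, against 4679 ± 130 CPM (96.2%). Citri had 4917 ± 83 CPM at 500 µg/mL and 4846 ± 88 CPM at 20 µg/mL, and Yijung-tang 4797 ± 71 CPM and 4787 ± 42 CPM, differences smaller than the spread between their libraries. Vehicle stood at 4834 ± 21 CPM. The sums carry no test, and in bulk RNA fewer cells in G2 or mitosis and less RNA per such cell cannot be told apart. They are dominated by abundant genes: TOP2A alone gave 662, 663 and 653 CPM in the vehicle libraries.

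**Figure D1:**
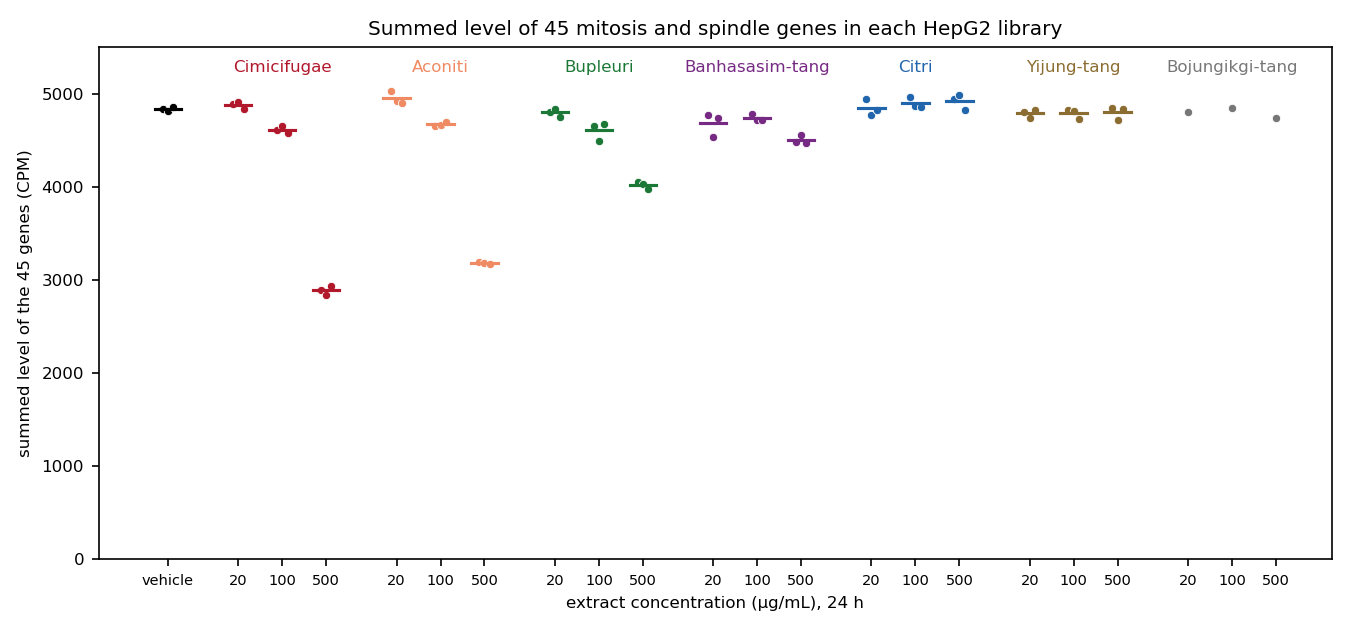
Summed level of the 45 mitosis genes (CPM, vertical axis) in each library, by extract and dose, with points for libraries and bars for group means. The 3 libraries at 500 µg/mL of Cimicifugae and of Aconiti lie far below every other library, those of Bupleuri lie between, and the remaining groups lie closer to the vehicle mean of 4834 CPM.

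Each gene was tested for 500 against 20 µg/mL in 1 edgeR quasi-likelihood model of all 57 replicated libraries, and was called at a Benjamini-Hochberg adjusted p under 0.05 over all 16093 genes. All 45 genes fell with Cimicifugae, where 19.6% of all genes tested fell, and all 45 fell with Aconiti, where 17.9% of all genes fell. With Bupleuri 34 of 45 fell, against 8.76% of all genes. With Banhasasim-tang 9 of 45 fell, against 6.44%. The median log2 change over the members was -0.75 for Cimicifugae, -0.64 for Aconiti, -0.24 for Bupleuri and -0.08 for Banhasasim-tang, while the median over all genes tested was 0.00 in each. Neither Citri nor Yijung-tang lowered a single member by edgeR (background 0.92% and 2.13% of genes lower), and DESeq2 called 1 member in each in total. In each of them edgeR called 1 member higher, against 0.665% and 1.61% of all genes. At an unadjusted p under 0.05 the members were 45 with Cimicifugae (45.8% of all genes), 45 with Aconiti (43.9%) and 38 with Bupleuri (28.1%). They were 14 of 45 with Banhasasim-tang (26.3% of all genes), 2 with Citri (10.9%) and 8 with Yijung-tang (14.7%). 

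Marker lists of other cell types also differed between these doses. Lysozyme, LYZ, which the leukocyte list holds and which made up nearly all of that list's sum, moved with the same doses. The 5 leukocyte markers summed to 2787 to 2996 CPM with 500 µg/mL Cimicifugae, against 1146 to 1160 CPM with 20 µg/mL, and to 1828 to 2070 CPM with 500 µg/mL Aconiti, against 992 to 1095 CPM with 20 µg/mL. For Bupleuri these sums were 2082 to 2146 CPM and 1113 to 1172 CPM, and for Banhasasim-tang 1686 to 1908 CPM and 1115 to 1279 CPM. PTPRC and CD3E were at most 0.046 and 0.049 CPM in all of these libraries. The 5 fibroblast markers, of which COL1A2, COL3A1 and DCN had a median of 0 CPM over all libraries and PDGFRB gave most of the sum, summed to 14.1 to 14.4 CPM at 500 µg/mL Cimicifugae, against 9.53 to 11.3 CPM at 20 µg/mL. The same sums were 12.1 to 13.4 CPM and 8.01 to 8.93 CPM for Aconiti, 15.0 to 15.9 CPM and 10.7 to 11.6 CPM for Bupleuri, and 14.6 to 16.5 CPM and 10.3 to 12.01 CPM for Banhasasim-tang. Only Citri ran the other way without overlap, with 7.79 to 9.18 CPM and 11.4 to 12.7 CPM. The 3 endothelial markers summed to 2.40 to 3.69 CPM at 500 µg/mL Cimicifugae, 3.02 to 3.16 CPM at 500 µg/mL Aconiti, 2.65 to 3.45 CPM at 500 µg/mL Bupleuri and 3.16 to 3.38 CPM at 500 µg/mL Banhasasim-tang, and to 3.87 to 5.69 CPM over the 20 µg/mL libraries of these extracts. The 9 hepatocyte markers summed to 37595 to 38797 CPM at 500 µg/mL Cimicifugae, against 43298 to 43578 CPM at 20 µg/mL, and to 35918 to 36822 CPM at 500 µg/mL Aconiti, against 40271 to 42036 CPM at 20 µg/mL. They were also lower, without overlap, with Citri (39960 to 41427 CPM, against 42645 to 43846 CPM) and Yijung-tang (39539 to 43136 CPM, against 43155 to 43657 CPM). Neither of those extracts lowered a mitosis gene. The hepatocyte sums overlapped between doses with Bupleuri and Banhasasim-tang. The part of these differences in the levels of the mitosis genes was not tested.

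**Figure D2:**
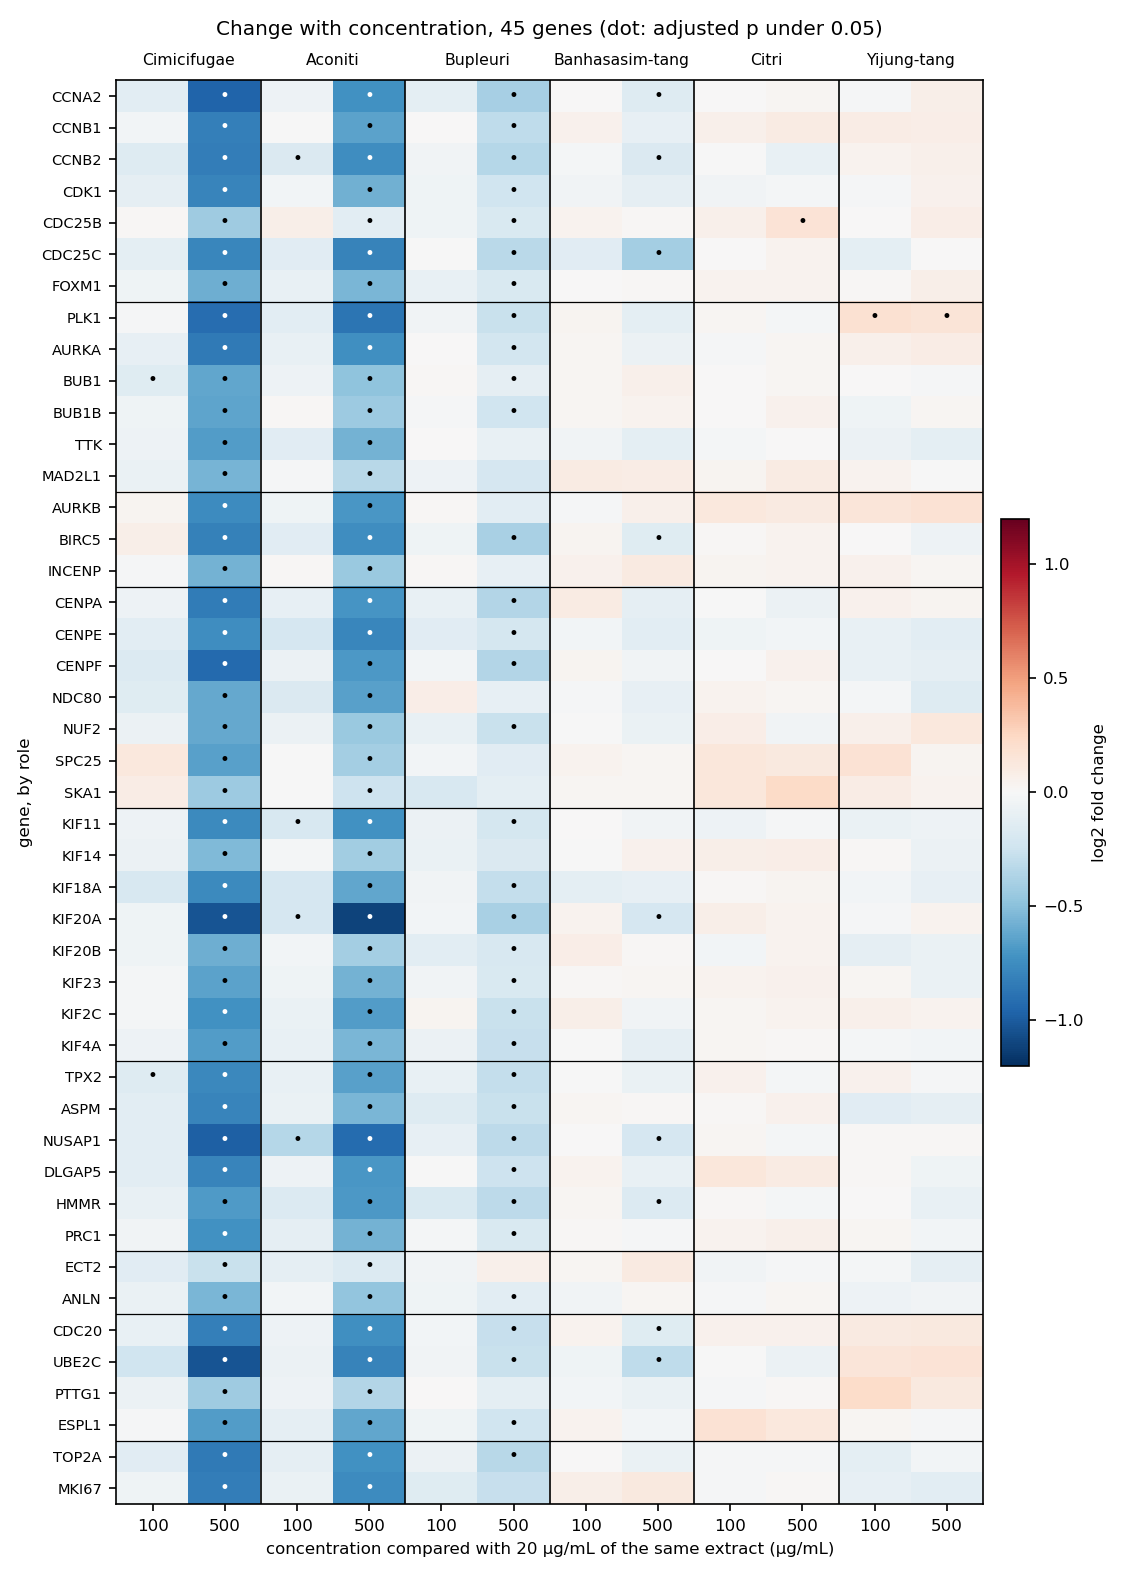
Log2 fold change (colour) of each of the 45 genes (rows, in blocks by role) at 100 and at 500 against 20 µg/mL of 6 extracts (columns), with a dot where the adjusted p was under 0.05. Every gene is lower in the 500 µg/mL columns of Cimicifugae and Aconiti, with KIF20A and UBE2C among the strongest and ECT2 and CDC25B among the weakest.

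Among the cyclins, CDK1 and their activators, 7 of 7 genes fell with Cimicifugae, Aconiti and Bupleuri. CCNA2, cyclin A2, which serves S phase and mitotic entry, read 94.5, 88.7 and 90.7 CPM in the 3 libraries at 500 µg/mL Cimicifugae, against 177, 175 and 179 CPM at 20 µg/mL (log2 change -0.96 ± 0.039 SE, adjusted p = 1.44e-27). With Aconiti it read 117, 111 and 108 CPM at 500 µg/mL, against 195, 182 and 179.9 CPM at 20 µg/mL (log2 change -0.73 ± 0.038 SE, adjusted p = 4.24e-23). With Bupleuri it read 136, 137 and 132 CPM, against 175, 177 and 179 CPM. The groups did not overlap in any of these extracts, and all libraries at 20 µg/mL lay near the vehicle values of 179, 179 and 178 CPM. CCNB1 and CCNB2, the B-type cyclins that bind CDK1, had log2 changes of -0.82 and -0.83 with Cimicifugae, -0.64 and -0.75 with Aconiti, and -0.31 and -0.35 with Bupleuri. CDK1, the kinase itself, read 46.3, 44.0 and 44.4 CPM at 500 µg/mL Cimicifugae, against 73.8, 74.8 and 83.4 CPM at 20 µg/mL, a log2 change of -0.79. CDC25C, a phosphatase that activates CDK1, fell to 57.9% of its low-dose level with Cimicifugae, 57.6% with Aconiti and 79.7% with Bupleuri. FOXM1, a transcription factor that drives many of the other members, had a smaller log2 change: 105, 103 and 97.7 CPM at 500 µg/mL Cimicifugae, against 155, 149.8 and 153 CPM at 20 µg/mL (log2 change -0.59 ± 0.046 SE). CDC25B, the phosphatase that starts CDK1 activation at the centrosomes, fell least in this role. It read 77.1, 75 and 73.4 CPM at 500 µg/mL Cimicifugae, against 102, 99.2 and 101 CPM at 20 µg/mL. With Aconiti it read 97.9, 100.4 and 106 CPM, against 107, 108 and 116 CPM (log2 change -0.13 ± 0.042 SE, adjusted p = 0.0123). The Aconiti groups were close to each other, and this call was lost without 500 µg/mL replicate 1 (adjusted p = 0.0896), without 20 µg/mL replicate 3 (0.13) and with no filter on low counts (0.0553).

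All 6 mitotic kinases and checkpoint genes fell with Cimicifugae and with Aconiti, and 4 of 6 with Bupleuri. PLK1, polo-like kinase 1, which acts from mitotic entry to cytokinesis, was the member with the highest level per length in vehicle, at 115.7 CPM per kb of transcript. It read 159, 158 and 148 CPM at 500 µg/mL Cimicifugae, against 304, 286 and 285 CPM at 20 µg/mL (log2 change -0.91 ± 0.048 SE, adjusted p = 6.8e-23). With Aconiti it read 186, 170.1 and 177 CPM, against 319, 326 and 331 CPM (log2 change -0.88 ± 0.047 SE, adjusted p = 2.21e-22). With Bupleuri it read 234, 234 and 258 CPM, against 282, 297 and 296 CPM. Every high-dose library lay below every low-dose library in the 3 extracts. AURKA, the kinase of centrosomes and spindle poles, had log2 changes of -0.85 with Cimicifugae, -0.74 with Aconiti and -0.22 with Bupleuri. The checkpoint genes had smaller log2 changes. BUB1 and BUB1B, which sit at unattached kinetochores, had log2 changes of -0.63 and -0.63 with Cimicifugae and -0.49 and -0.44 with Aconiti. MAD2L1, the checkpoint protein MAD2 that restrains CDC20, read 42.2, 38.8 and 43.7 CPM at 500 µg/mL Cimicifugae, against 58.9, 58.9 and 64.7 CPM at 20 µg/mL, a log2 change of -0.56. With Bupleuri neither MAD2L1 (log2 change -0.20, adjusted p = 0.0758) nor the checkpoint kinase TTK (-0.09, adjusted p = 0.399) passed the test.

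The chromosomal passenger complex corrects faulty attachments and directs cytokinesis, and its 3 members here fell with Cimicifugae and with Aconiti. BIRC5, survivin, the subunit that docks the complex at centromeres, read 94.1, 85.5 and 87.8 CPM at 500 µg/mL Cimicifugae, against 155, 158 and 154 CPM at 20 µg/mL (log2 change -0.81 ± 0.053 SE, adjusted p = 9.36e-19). Under Aconiti the values were 91.2, 93.3 and 93.1 CPM, against 145, 153 and 164 CPM (log2 change -0.74 ± 0.053 SE). The groups were separate in both extracts. AURKB, the kinase of the complex, read 41.8, 41.7 and 35.1 CPM at 500 µg/mL Cimicifugae, against 65.2, 68.7 and 66.2 CPM at 20 µg/mL. INCENP, its scaffold, had a log2 change of -0.57 with Cimicifugae and -0.45 with Aconiti. With Bupleuri BIRC5 fell (log2 change -0.39, adjusted p = 3.15e-08), while AURKB (-0.13, adjusted p = 0.111) and INCENP (-0.10, adjusted p = 0.316) did not pass.

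Of the centromere and kinetochore genes, 7 of 7 fell with Cimicifugae and with Aconiti and 4 of 7 with Bupleuri. CENPF, a large kinetochore and microtubule-binding protein, read 116, 114 and 126 CPM at 500 µg/mL Cimicifugae, against 228, 229 and 218 CPM at 20 µg/mL (log2 change -0.93 ± 0.063 SE, adjusted p = 1.39e-17). Under Aconiti the values were 133, 132 and 143 CPM, against 232, 212 and 213 CPM. The high dose left 52.5% of the low-dose level with Cimicifugae and 61.9% with Aconiti. CENPE, the kinesin that carries chromosomes to the spindle equator, had log2 changes of -0.75 with Cimicifugae and -0.78 with Aconiti. CENPA, the histone H3 variant that marks centromeres, read 16.7, 16.1 and 15.6 CPM at 500 µg/mL Cimicifugae, against 29.2, 29.6 and 27.3 CPM at 20 µg/mL. The NDC80 complex forms the outer kinetochore's grip on microtubules. Its members NDC80, NUF2 and SPC25 had log2 changes of -0.62, -0.61 and -0.65 with Cimicifugae and -0.65, -0.45 and -0.41 with Aconiti. SKA1, which stabilises that grip, fell least: 18.1, 19.3 and 17.5 CPM at 500 µg/mL Aconiti, against 22, 21.8 and 21.1 CPM at 20 µg/mL (log2 change -0.24 ± 0.065 SE, adjusted p = 0.00179). With Bupleuri NUF2, CENPA, CENPE and CENPF fell, while NDC80, SPC25 and SKA1 did not pass.

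All 8 kinesin motors fell with Cimicifugae and with Aconiti, and 7 of 8 with Bupleuri. KIF20A, a motor of the central spindle needed for cytokinesis, fell to 48.7% of its low-dose level with Cimicifugae and 46.4% with Aconiti, and no other member fell below 50% in both. It read 39.0, 38.0 and 39.0 CPM at 500 µg/mL Cimicifugae, against 81.4, 78.8 and 77.3 CPM at 20 µg/mL (log2 change -1.04 ± 0.044 SE, adjusted p = 1.9e-26). Under Aconiti the values were 40.3, 39.5 and 37.9 CPM, against 83.8, 83.7 and 84.9 CPM (log2 change -1.11 ± 0.043 SE, adjusted p = 2.77e-28). With Bupleuri it read 55.7, 59.8 and 57.9 CPM, against 76.8, 75.4 and 74.2 CPM (log2 change -0.39). No high-dose library of these extracts reached its low-dose group, and vehicle read 78.9, 74.4 and 78.4 CPM. KIF11, the motor that pushes spindle poles apart, had log2 changes of -0.76 with Cimicifugae and -0.73 with Aconiti. KIF18A, which damps chromosome movement, had -0.77 and -0.62, and KIF2C, a microtubule depolymerase at centromeres, -0.72 and -0.67. KIF23, a midzone motor, had -0.64 and -0.56, and the chromokinesin KIF4A -0.67 and -0.55. The weakest changes were those of KIF14, a cytokinesis motor, with -0.53 and -0.42, and of KIF20B, a relative of KIF20A, with -0.59 and -0.40. KIF14 was the motor that did not pass with Bupleuri (log2 change -0.18, adjusted p = 0.06).

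All 6 spindle assembly and midzone genes fell with Cimicifugae, Aconiti and Bupleuri. NUSAP1, which bundles microtubules near chromosomes, read 35.6, 37.2 and 37.4 CPM at 500 µg/mL Cimicifugae, against 71.4, 71.4 and 74.1 CPM at 20 µg/mL (log2 change -0.98 ± 0.044 SE, adjusted p = 1.75e-25). The Aconiti libraries held 39.0, 40.1 and 36.9 CPM, against 74.0, 73.6 and 71.5 CPM (log2 change -0.92 ± 0.043 SE, adjusted p = 6.34e-25). Both doses were tightly grouped and separate in each extract. TPX2, which activates AURKA on the spindle, had log2 changes of -0.77 with Cimicifugae, -0.65 with Aconiti and -0.28 with Bupleuri. PRC1, the crosslinker of the central spindle, had -0.72, -0.57 and -0.18 in the same order, and ASPM, a spindle pole protein, -0.79, -0.55 and -0.27. DLGAP5 and HMMR, which stabilise spindle fibres, had -0.79 and -0.68 with Cimicifugae and -0.70 and -0.69 with Aconiti. The cytokinesis role, which held only ECT2 and ANLN, had the smallest median log2 change of the 9 roles, -0.41 with Cimicifugae and -0.32 with Aconiti. KIF20A and KIF14, which also act in cytokinesis, were counted with the kinesin motors, so this median does not cover all cytokinesis genes. ECT2, the exchange factor that switches on RhoA at the division plane, read 73.6, 69.8 and 74.6 CPM at 500 µg/mL Cimicifugae, against 84.0, 87.4 and 89.5 CPM at 20 µg/mL (log2 change -0.26 ± 0.048 SE, adjusted p = 7.5e-06). The Aconiti libraries held 76.6, 77.2 and 76.2 CPM, against 87.4, 89.7 and 79.6 CPM (log2 change -0.16 ± 0.047 SE). ANLN, anillin, a scaffold of the contractile ring, had log2 changes of -0.55 with Cimicifugae and -0.47 with Aconiti. The Aconiti call of ECT2 was lost without 20 µg/mL replicate 2 (adjusted p = 0.0533). With Bupleuri ANLN fell (log2 change -0.13), while ECT2 was the 1 member of 45 with a positive log2 change (0.06 ± 0.046 SE, adjusted p = 0.455). That ANLN call was lost with no filter (0.166) and without 20 µg/mL replicate 2 (0.0574) or 500 µg/mL replicate 3 (0.0524).

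Among genes of the anaphase-promoting complex and sister separation, all 4 fell with Cimicifugae and Aconiti and 3 of 4 with Bupleuri. UBE2C, the ubiquitin-conjugating enzyme of that complex, read 26.3, 25.0 and 22.6 CPM at 500 µg/mL Cimicifugae, against 48.5, 50.4 and 52.9 CPM at 20 µg/mL (log2 change -1.04 ± 0.078 SE, adjusted p = 2.07e-16). The Aconiti libraries held 30.2, 28.8 and 27.8 CPM, against 49.3, 52.6 and 48.4 CPM (log2 change -0.80 ± 0.074 SE). CDC20, the activator of the complex, had log2 changes of -0.82 with Cimicifugae, -0.74 with Aconiti and -0.28 with Bupleuri. ESPL1, separase, the protease that cuts cohesin, had -0.67, -0.63 and -0.24. PTTG1, securin, which holds separase inactive, had a smaller log2 change: 41.4, 42.9 and 42.8 CPM at 500 µg/mL Cimicifugae, against 56.0, 58.2 and 55.5 CPM at 20 µg/mL, with no overlap. Of the mitotic chromosome genes, TOP2A, the topoisomerase that untangles sister chromatids, read 337, 334 and 369.9 CPM at 500 µg/mL Cimicifugae, against 609, 637 and 618 CPM at 20 µg/mL (log2 change -0.85 ± 0.041 SE). It read 366, 382 and 344 CPM at 500 µg/mL Aconiti, against 623, 597 and 584 CPM. MKI67, the proliferation marker Ki-67, which coats mitotic chromosomes, read 219, 224 and 228 CPM at 500 µg/mL Cimicifugae, against 403, 404 and 378 CPM (log2 change -0.83 ± 0.109 SE). It fell by a similar amount with Aconiti (-0.75 ± 0.108 SE). With Bupleuri MKI67 read 316, 319.8 and 293 CPM at 500 µg/mL, against 395, 376 and 355 CPM at 20 µg/mL. Those groups did not overlap either, but the gene missed the threshold (adjusted p = 0.0655).

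**Figure D3:**
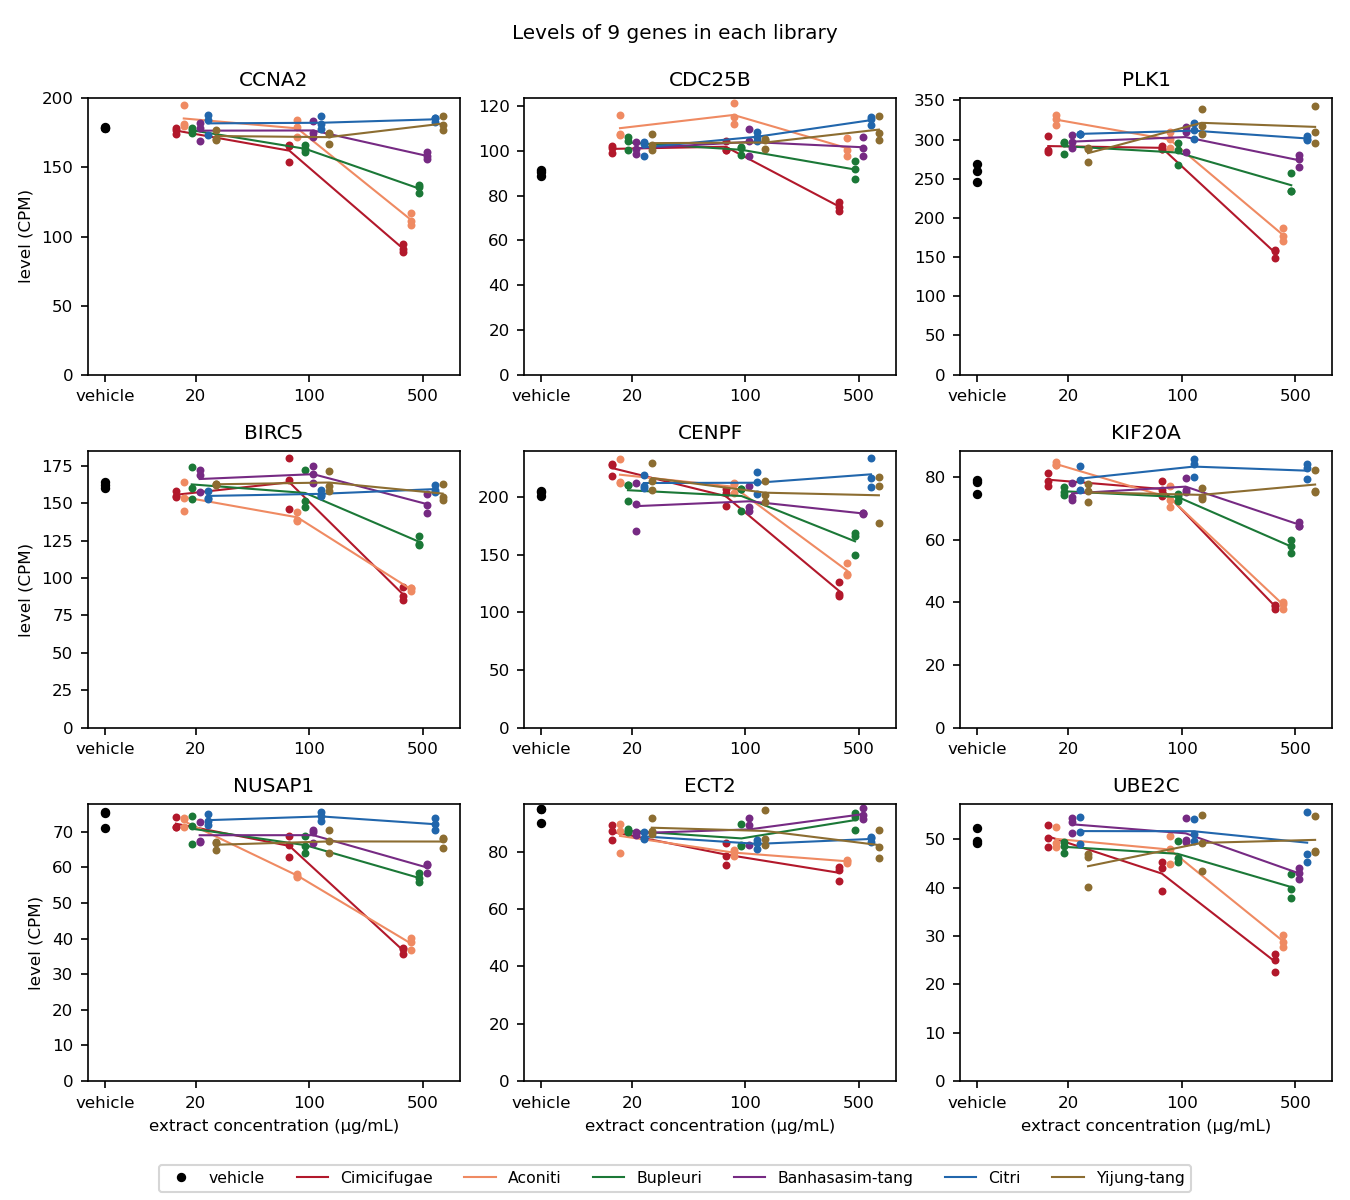
Level (CPM, vertical axis) of 9 mitosis genes in each vehicle library and at 20, 100 and 500 µg/mL of 6 extracts (horizontal axis), with points for libraries and lines through the dose means. The drop at 500 µg/mL stands out for Cimicifugae and Aconiti in each panel except ECT2 and, for Aconiti, CDC25B, where the doses lie close together.

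With Bupleuri the fall was smaller than with Aconiti, the other extract of its set, and reached fewer genes. Its largest log2 changes were those of CCNA2 (-0.39), KIF20A (-0.39) and BIRC5 (-0.39), and its smallest called one was that of BUB1. BUB1 read 96.1, 96.4 and 92.1 CPM at 500 µg/mL, against 103, 100.2 and 103 CPM at 20 µg/mL (-0.10, adjusted p = 0.0473). The call was lost without any 1 of these 6 libraries (0.0502 to 0.21), with no filter on low counts (0.383) and with only the groups compared (0.102). Leaving out 1 library also ended the Bupleuri calls of ASPM and CENPE (3 libraries each), ANLN and KIF20B (2 each) and KIF23 (1). In 37 of 45 genes the 3 libraries at 500 µg/mL lay below all 3 at 20 µg/mL, against 15.1% of all genes tested. The 9 genes that fell with Banhasasim-tang were all among the 34 of Bupleuri, so they are 100% of the shorter list and 26.5% of the longer. They were CDC25C, UBE2C, KIF20A, NUSAP1, CCNB2, HMMR, CCNA2, BIRC5 and CDC20, and 6 to 10 members fell when each library was left out in turn. HMMR, BIRC5 and CDC20 were lost with only the groups compared (adjusted p = 0.0584, 0.0683 and 0.0687), without any of 3, 4 and 3 libraries (up to 0.111, 0.196 and 0.205), and HMMR and CDC20 also with no filter (0.053 and 0.0577). CDC25C read 14.1, 16.9 and 14.8 CPM at 500 µg/mL Banhasasim-tang, against 19.4, 19.4 and 22.1 CPM at 20 µg/mL (log2 change -0.41 ± 0.067 SE, adjusted p = 5.62e-06). UBE2C read 44.1, 41.7 and 43.0 CPM, against 51.4, 53.6 and 54.4 CPM (log2 change -0.30 ± 0.070 SE, adjusted p = 0.00137). KIF20A read 64.4, 64.3 and 65.8 CPM, against 78.0, 73.8 and 72.6 CPM (log2 change -0.20 ± 0.041 SE). The 3 genes stood apart between doses, and the remaining 6 had log2 changes of -0.20 to -0.14. The 2 members nearest the threshold were BIRC5, with 143, 156 and 149 CPM at 500 µg/mL, against 157, 172 and 169 CPM at 20 µg/mL (adjusted p = 0.0389), and TPX2, with 273, 279 and 272 CPM, against 297, 287 and 292 CPM (adjusted p = 0.0683). One library of the low dose, replicate 2, read low for MKI67 and ASPM. At 20 µg/mL MKI67 was 385, 248 and 338 CPM and ASPM 103, 73.3 and 95.0 CPM. MKI67 was also lowest in replicate 2 at 500 µg/mL Yijung-tang (394, 300 and 408 CPM). A relation of these low values to transcript length was not tested. When the trend of log2 level with transcript GC content was removed from each library, 17 members fell with Banhasasim-tang in place of 9. The additional ones were TPX2, KIF4A, TTK, DLGAP5, TOP2A, CENPE, PLK1 and CDK1. The share of all genes that fell in that fit is not given here.

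Citri and Yijung-tang each gave 1 call, and it was upward. CDC25B read 112, 114 and 115 CPM at 500 µg/mL Citri, against 97.6, 103 and 104 CPM at 20 µg/mL (log2 change 0.16 ± 0.043 SE, adjusted p = 0.0274). All high-dose libraries lay above the low-dose ones, yet the call was lost without 500 µg/mL replicate 2 (adjusted p = 0.1), without 500 µg/mL replicate 3 (0.131), without 20 µg/mL replicate 1 (0.191), without 20 µg/mL replicate 2 (0.0625) and with no filter on low counts (0.13). SKA1 came next, with 23.3, 23.6 and 25.9 CPM at 500 µg/mL Citri, against 20.8, 20.7 and 20.7 CPM at 20 µg/mL (0.23, adjusted p = 0.0505). PLK1 read 343, 309 and 296 CPM at 500 µg/mL Yijung-tang, against 271, 289 and 288 CPM at 20 µg/mL (log2 change 0.16 ± 0.046 SE, adjusted p = 0.0369). That call was lost without 500 µg/mL replicate 1 (0.403), 500 µg/mL replicate 2 (0.0536), 20 µg/mL replicate 1 (0.256) or 20 µg/mL replicate 3 (0.0581), and when only the groups compared were fitted (0.372). AURKB, next in order, read 72.2, 70.0 and 65.8 CPM, against 56.3, 65.5 and 62.1 CPM (0.17, adjusted p = 0.0765), and it was called without 20 µg/mL replicate 2 or 500 µg/mL replicate 3. The other 44 genes in each extract had log2 changes of -0.08 to 0.23 with Citri and -0.16 to 0.17 with Yijung-tang. Bojungikgi-tang had 1 library per dose and was not tested. Its ratio of 500 to 20 µg/mL ranged from 0.869 (NUF2) to 1.125 (AURKB) with a median of 0.991, and KIF20A read 76.3, 80.3 and 78.7 CPM at 20, 100 and 500 µg/mL.

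At 100 µg/mL most of the fall seen at 500 µg/mL was absent and few members were called. The summed level was 94.5% of that at 20 µg/mL with Cimicifugae, 94.4% with Aconiti and 96.0% with Bupleuri. In these extracts every library at 100 µg/mL lay below every one at 20 µg/mL. With Citri, Yijung-tang and Banhasasim-tang it was 101%, 99.98% and 101.2%. Against 20 µg/mL, Aconiti lowered 4 of 45 members (2.49% of all genes fell), Cimicifugae 2 (0.472%), and Yijung-tang raised 1 (0.696% of all genes rose). Citri, Bupleuri and Banhasasim-tang gave no call by edgeR (0.0249%, 0.0932% and 0.0124% of all genes fell) and none by DESeq2. At an unadjusted p under 0.05 they had 4, 6 and 1 members, where 3.61%, 7.13% and 2.93% of all genes passed. NUSAP1 with Aconiti changed most: 74.0, 73.6 and 71.5 CPM at 20 µg/mL, 57.4, 58.2 and 57.6 CPM at 100 µg/mL and 39.0, 40.1 and 36.9 CPM at 500 µg/mL, with a log2 change of -0.34 ± 0.042 SE at 100 µg/mL (adjusted p = 2.12e-08). KIF20A read 83.8, 83.7 and 84.9, then 70.4, 72.6 and 77.1, then 40.3, 39.5 and 37.9 CPM over the same doses. Both genes stepped down at each dose without overlap. The other Aconiti calls were KIF11 (-0.19) and CCNB2 (-0.17, adjusted p = 0.0111), and that of CCNB2 was lost without 100 µg/mL replicate 2 (0.0539), 100 µg/mL replicate 3 (0.0825) or 20 µg/mL replicate 3 (0.0567), or with no filter (0.0566). With Cimicifugae the calls were TPX2 (-0.15, adjusted p = 0.00342) and BUB1 (-0.14, adjusted p = 0.0452). BUB1 was lost without 100 µg/mL replicate 1 or 3 or any 1 of the 20 µg/mL libraries. Both calls were lost with no filter on low counts (0.0854 for TPX2 and 0.226 for BUB1), where UBE2C was the 1 member called. With Yijung-tang the 1 call was PLK1 (0.18, adjusted p = 0.0268), lost without 100 µg/mL replicate 1 (0.253), 100 µg/mL replicate 3 (0.0563), 20 µg/mL replicate 1 (0.247) or 20 µg/mL replicate 2 (0.0502). Though few genes were called, the log2 change at 100 µg/mL was negative in 42 of 45 genes with Aconiti (median -0.08) and 40 of 45 with Cimicifugae (median -0.07). With Bupleuri it was negative in 36 of 45 (median -0.05). Over all genes tested the median at 100 µg/mL was 0.00 in each of these extracts. The members were read from the same libraries, so the counts of negative genes are descriptions and not separate observations. Medians at 500 µg/mL were -0.64, -0.75 and -0.24 in the same order. Citri, Yijung-tang and Banhasasim-tang had 14, 18 and 15 negative members at 100 µg/mL.

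Differences between extracts in the dose effect were tested in the same model. Number codes in the sample titles put Cimicifugae with Citri, Aconiti with Bupleuri, and Banhasasim-tang with Yijung-tang, each pair in a set, and vehicle in a set of its own. Cimicifugae against Citri, which share a title set, differed in all 45 members, each lower in Cimicifugae (14.5% of all genes), with a median difference of -0.76 on the log2 scale. For KIF20A the difference was -1.08 ± 0.061 (adjusted p = 7.71e-21). Aconiti against Bupleuri differed in 36 of 45, each lower in Aconiti (4.87% of all genes), with a median of -0.37. KIF20A differed by -0.72 ± 0.060 (adjusted p = 9.13e-14) and CDC25B by 0.05 ± 0.060 (adjusted p = 0.71), which did not pass. The other 8 that did not pass were ASPM, KIF14, KIF20B, NUF2, SPC25, SKA1, MAD2L1 and PTTG1. Of the 36, MKI67 was lost without any of 9 libraries, BUB1B without any of 6, KIF18A of 4, ECT2 of 3 and CENPA of 1, BUB1B also with no filter (0.111) and KIF18A with only the groups compared (0.0867). Banhasasim-tang against Yijung-tang differed in 10: 9 lower in Banhasasim-tang (4.92% of all genes), led by UBE2C with -0.46 ± 0.099 (adjusted p = 0.000664) and CDC25C with -0.41 ± 0.093 (adjusted p = 0.00146), and 1 higher (6.92%). The other lower genes were PLK1, CDC20, KIF20A, CCNB2, CCNA2, NUSAP1 and AURKA. AURKA was lost with no filter (0.173), with only the groups compared (0.187) and without any of 6 libraries (0.0583 to 0.13). CDC20 (0.0615), CCNB2 (0.102) and NUSAP1 (0.0622) were lost with only the groups compared, and NUSAP1 with no filter (0.0661). The higher one was ECT2, with 0.22 ± 0.065 (adjusted p = 0.0189), and it was lost without Banhasasim-tang 500 µg/mL replicate 3 (0.0577), Yijung-tang 500 µg/mL replicate 1 (0.0873) or Yijung-tang 20 µg/mL replicate 1 (0.0982). ECT2 was also lost with no filter (0.073), with only the groups compared (0.0708) and with the GC trend removed (0.0619).

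The extracts that lowered all 45 genes were set against each other in the same way. Aconiti and Cimicifugae, which belong to different title sets, differed in 4 members, all of them less lowered in Aconiti (3.24% of all genes were higher), and in none the other way (2.82% were lower). At an unadjusted p under 0.05 15 members differed, where 17.3% of all genes did, and DESeq2 called 5 members. The 4 were CDC25B with 0.30 ± 0.061 (adjusted p = 0.000567), CCNA2 with 0.23 ± 0.054 (adjusted p = 0.00414), BUB1B with 0.20 ± 0.063 (adjusted p = 0.0494) and PRC1 with 0.15 ± 0.049 (adjusted p = 0.046). The count fell to 2 when any of 7 libraries was left out: Aconiti 500 µg/mL replicate 1 or 3, Aconiti 20 µg/mL replicate 2 or 3, Cimicifugae 500 µg/mL replicate 1 or 2, or Cimicifugae 20 µg/mL replicate 2. BUB1B and PRC1 were also lost with no filter (0.207 and 0.408), with only the groups compared (0.105 and 0.193) and with the GC trend removed (0.0865 and 0.0547). Over the 45 genes the log2 changes of these extracts had a Pearson r of 0.902. They come from separate libraries, and the genes share transcript features and a regulatory class, so r is a description. It was 0.781 for Bupleuri and Cimicifugae, 0.682 for Aconiti and Bupleuri, and 0.604, 0.643 and 0.601 for Banhasasim-tang with Cimicifugae, Aconiti and Bupleuri. Citri, which lowered no member, had 0.271 to 0.432 with these 4 extracts, and Yijung-tang had -0.201 to 0.029 with the other 5.

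**Figure D4:**
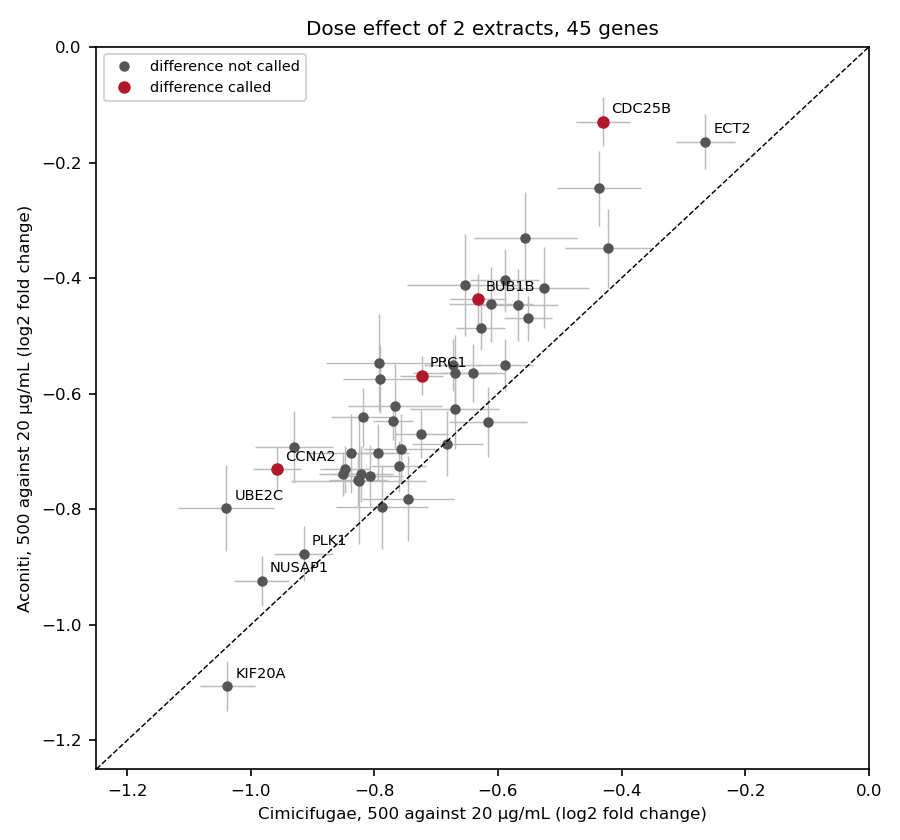
Log2 fold change at 500 against 20 µg/mL for each of the 45 genes with Aconiti (vertical axis) and Cimicifugae (horizontal axis), with standard errors as bars, a dashed line of equality and the 4 called differences in red. The points rise together (r = 0.902), and 40 of 45 lie above the line, on the side of the smaller fall with Aconiti.

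Other genes of division were counted from lists of known function, beside 19.6%, 17.9%, 8.76% and 6.44% of all genes that fell with Cimicifugae, Aconiti, Bupleuri and Banhasasim-tang. Of 39 further mitosis genes, 38 fell with Cimicifugae, 38 with Aconiti, 31 with Bupleuri and 7 with Banhasasim-tang, and 1, TROAP, rose with Yijung-tang (1.61% of all genes rose). The smallest p in Cimicifugae and Aconiti belonged to FAM83D, a spindle protein that works with HMMR (-0.86 and -0.98 on the log2 scale), CDCA8, borealin of the passenger complex (-0.97 and -0.86), and NCAPD2, a condensin subunit (-0.75 and -0.71). The 1 exception in that pair was BUB3, the partner of BUB1, with log2 changes of -0.07 (adjusted p = 0.216) and -0.06 (adjusted p = 0.304). Of 24 DNA replication genes, 24 fell with Cimicifugae, 21 with Aconiti, 18 with Bupleuri and 2 with Banhasasim-tang, while RRM2 rose with Banhasasim-tang (0.25; 8.51% of all genes rose) and CDT1 with Yijung-tang (0.19). The replicative helicase subunit MCM2 had a log2 change of -0.92 with Cimicifugae and -0.70 with Aconiti, and MCM3 -0.81 and -0.41. Of 12 genes of the MuvB complex, its pocket proteins and B-MYB, 10, 8 and 5 fell with Cimicifugae, Aconiti and Bupleuri, and LIN54 rose with Banhasasim-tang (0.16). RBL1, the pocket protein p107, had -0.53, -0.31 and -0.16, and MYBL2, B-MYB itself, had -0.55, -0.50 and -0.18. Of 17 regulators of mitotic entry and exit, 8 fell and 1 rose with Cimicifugae and 9 fell and 1 rose with Aconiti, the riser in both being CDC16, a core subunit of the anaphase-promoting complex (19.4% and 19.1% of all genes rose). With Bupleuri 4 fell, and with Banhasasim-tang 1 rose, ANAPC1, another core subunit (0.13, adjusted p = 0.0474). FBXO5, the inhibitor EMI1 of that complex, fell with both (-0.67 and -0.55). Of 8 G1 cyclins and kinases, 4 fell with Cimicifugae, 5 with Aconiti, 3 with Bupleuri, 2 with Banhasasim-tang and 1 with Yijung-tang (2.13% of all genes), and CDK2, the partner of cyclins E and A, had -0.64 with Cimicifugae and -0.46 with Aconiti. With Citri none of the genes on these lists or of the kinase inhibitors was called by edgeR. An unadjusted p under 0.05 was found for 11 of the 106, and for 10.9% of all genes.

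The inhibitors of cyclin-dependent kinases did not move one way: of 6 tested, 3 rose and 2 fell with Cimicifugae, 3 rose and 1 fell with Aconiti, 2 rose and 2 fell with Bupleuri, and 2 rose and 1 fell with Banhasasim-tang. Of all genes tested 19.4%, 19.1%, 9.77% and 8.51% rose in these extracts, in the same order. CDKN1A, the p53 target p21, read 201, 201 and 200.2 CPM at 500 µg/mL Aconiti, against 102, 104 and 107 CPM at 20 µg/mL (log2 change 0.94 ± 0.041 SE, adjusted p = 4.56e-26). With Cimicifugae it read 151, 155 and 144 CPM, against 96.4, 97.0 and 102 CPM (log2 change 0.60 ± 0.042 SE, adjusted p = 9.41e-18). Vehicle read 103, 103 and 101 CPM. Every library at 500 µg/mL of these extracts lay above those at 20 µg/mL and above vehicle. The gene also rose with Banhasasim-tang (0.33) and Bupleuri (0.23) and was not called with Citri (-0.04) or Yijung-tang (0.02). CDKN2B, the INK4 inhibitor p15, had log2 changes of 1.06 with Cimicifugae, 1.01 with Aconiti and 0.86 with Bupleuri, all called, from low levels such as 13.2, 12.7 and 11.5 CPM at 500 µg/mL Cimicifugae, against 5.48, 6.17 and 6.21 CPM. With Yijung-tang it fell (-0.86, adjusted p = 2.54e-08). CDKN2C, the INK4 inhibitor p18, fell with the mitosis genes: 10.8, 10.4 and 11.8 CPM at 500 µg/mL Aconiti, against 22.9, 23.0 and 23.9 CPM at 20 µg/mL (log2 change -1.09), and -1.03 with Cimicifugae. CCND1, cyclin D1, which acts in G1, had -0.49 with Cimicifugae, -0.40 with Bupleuri and -0.10 with Aconiti.

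Against vehicle, the extracts that lowered the mitosis genes between doses also lowered them at 500 µg/mL. Vehicle libraries form a title set of their own, so extract and set cannot be told apart in any comparison with vehicle. Cimicifugae at 500 µg/mL lowered 45 members (22.2% of all genes fell) and Aconiti 44, with CDC25B higher at a log2 change of 0.16, or -0.005 with the GC trend removed (22.9% of all genes fell and 24.4% rose). Bupleuri lowered 34 (16.5%). KIF20A had log2 changes of -0.999 ± 0.045 with Cimicifugae, -0.98 ± 0.044 with Aconiti and -0.42 ± 0.042 with Bupleuri (SE). Banhasasim-tang lowered 20 and raised 4 (15.9% and 18.5%), Yijung-tang lowered 14 and raised 7 (15% and 17.4%), and Citri lowered 3 and raised 6 (9.61% and 12.7%). Without vehicle replicate 2 the lower and higher members were 45 and 0, 44 and 1, 36 and 0, 18 and 4, 12 and 5, and 2 and 4 in the order Cimicifugae, Aconiti, Bupleuri, Banhasasim-tang, Yijung-tang and Citri. The share of all genes called without that library is not given here.

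At 20 µg/mL the libraries of each of the 6 extracts also differed from vehicle in some members, and here too extract and title set cannot be told apart. The counts of lower and higher members were 5 and 3 with Cimicifugae (8.05% and 10.6% of all genes), 8 and 9 with Aconiti (14.2% and 16.7%), and 8 and 6 with Bupleuri (9.04% and 12.5%). They were 7 and 5 with Banhasasim-tang (12.9% and 15.2%), 11 and 6 with Yijung-tang (12.1% and 14.8%) and 7 and 5 with Citri (8.12% and 10.8%). These comparisons share the 3 vehicle libraries. FOXM1, CDC25B and PLK1 were higher and MAD2L1 and SPC25 lower in all 6. Without vehicle replicate 2 FOXM1 and CDC25B remained higher in 6 extracts, while PLK1 was called in 3 (Citri, Aconiti and Banhasasim-tang), MAD2L1 in 3 (Citri, Cimicifugae and Aconiti) and SPC25 in 3 (Bupleuri, Aconiti and Yijung-tang), with no change of sign. With the GC trend removed, calls were left for FOXM1 in 3 extracts, PLK1 in 2, CDC25B and SPC25 in 1 each and MAD2L1 in 0, and the log2 change of CDC25B was -0.035 with Banhasasim-tang and that of PLK1 -0.004 with Yijung-tang. PLK1 read 304, 286 and 285 CPM at 20 µg/mL Cimicifugae and 319, 326 and 331 CPM at 20 µg/mL Aconiti, against 259, 245 and 268 CPM in vehicle. MAD2L1 read 58.9, 58.9 and 64.7 CPM and 62.7, 64.9 and 58.9 CPM in those extracts, against 73.1, 80.6 and 72.5 CPM. Transcript GC content was 55.6% for FOXM1, 59.3% for CDC25B and 57.3% for PLK1, and 39.4% for MAD2L1 and 40.0% for SPC25. The libraries differed in their GC trend: the slope of log2 level on transcript GC content, relative to the mean of all libraries, was -0.0161 to -0.0134 log2 units per percent GC in vehicle and -0.00605 to 0.00969 in the libraries with extract. Across the 45 members the log2 change at 20 µg/mL against vehicle had a Pearson r with GC content of 0.522 to 0.795 over the 6 extracts, a description over genes that share the vehicle libraries. With the GC trend removed, lower members at 20 µg/mL were 3 with Yijung-tang and 0 in the other 5 extracts, and higher members were 5 with Cimicifugae, 15 with Aconiti, 3 with Bupleuri, 6 with Banhasasim-tang, 6 with Yijung-tang and 7 with Citri. Lower members at 500 µg/mL were then 45 with Cimicifugae, 44 with Aconiti, 32 with Bupleuri, 12 with Banhasasim-tang, 2 with Yijung-tang and 0 with Citri. Without vehicle replicate 2, and with no GC term, the lower and higher counts at 20 µg/mL were 1 and 2 with Cimicifugae, 8 and 6 with Aconiti, 3 and 3 with Bupleuri, 6 and 4 with Banhasasim-tang, 8 and 4 with Yijung-tang and 4 and 3 with Citri. The counts of these refits are given without the share of all genes called, so they cannot be read as particular to the members. Between doses of 1 extract the r with GC content was -0.115 to 0.202 except for Yijung-tang (0.567).

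**Figure D5:**
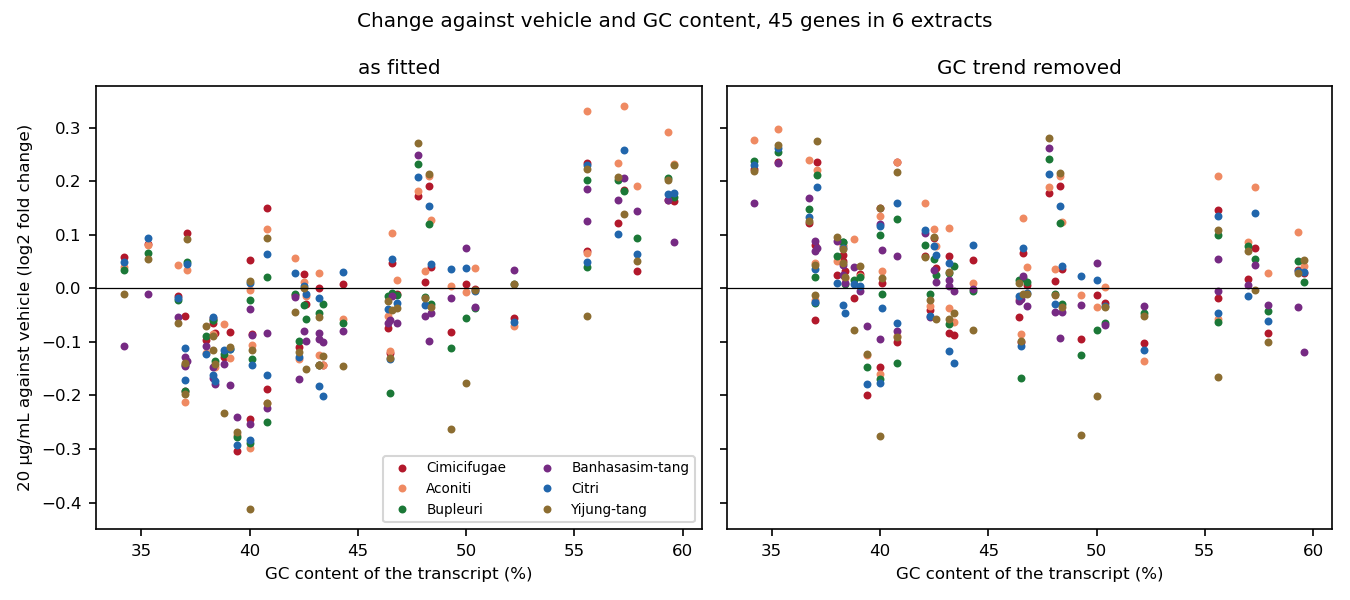
Log2 fold change of each of the 45 genes at 20 µg/mL of 6 extracts against vehicle (vertical axis), by GC content of the transcript (percent, horizontal axis), as fitted on the left and with the GC trend of each library removed on the right. On the left the points rise with GC content (r = 0.522 to 0.795 by extract). On the right they do not, and r is negative in each extract (-0.423 with Banhasasim-tang to -0.121 with Citri and Aconiti).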

How the data were processed

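The data are mRNA-seq libraries of HepG2 cells, made per the labels with a strand-specific kit and read as 100 bp paired ends. Per the submitters' processing notes, the authors used FastQC 0.11.9, Trim Galore 0.6.5, STAR 2.7.3a and RSEM 1.3.3 on GRCh38. The annotation release is not given in the sources used here. The deposited table holds RSEM expected counts, which are estimates and not normalized, and 24.5% of its nonzero values are not whole. Another 207 columns of the table belong to no sample of the series and were not used. The design text names a higher DMSO share than the labels and a wortmannin control that is not analysed here, and says that doses of toxic extracts were lowered and low-RNA samples dropped.

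Symbols, lengths and GC content came from GENCODE 29, which has an entry for 57055 of the table's 60675 rows, and the remaining 3620 rows carried 0.0398% of all counts. Counts were rounded, filtered with filterByExpr and fitted with edgeR 4.0.16 in R 4.3.3 (robust quasi-likelihood, limma 3.58.1) over 57 libraries in 19 groups. TMM factors were 0.898 to 1.04 and the common biological coefficient of variation was 4.86%. Printed CPM are TMM-scaled. Standard errors come from each gene's log2 change and F statistic. Each comparison was adjusted over 16093 genes by Benjamini-Hochberg. The script was tested on simulated data. The alternatives were median-ratio size factors, no filter, a mean CPM of at least 1, DESeq2 1.42.0, replicate blocks, fits of only the groups compared, removal of a GC trend, and each of 57 libraries left out. Promoter windows are RefSeq's. The 45 genes, the other lists, the 5 windows printed and the comparisons were chosen with earlier results of these data known. All 45 members may be named, in order of role. Values per library go to the member with the largest log2 change of each role with Cimicifugae, to members called against the rest and to those nearest the threshold, and to others that help to read these. Other lists are given by counts, with up to 3 called genes of smallest p, and BUB3, CDC16, TROAP, RRM2, CDT1, LIN54, ANAPC1, CDKN2B with Yijung-tang and CCND1 with Aconiti were chosen after their values were seen.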

Additional observations from a re-analysis of the deposited data

Results flagged for a closer look

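Differences between extracts in the effect of 500 against 20 µg/mL were tested as interactions in edgeR and are listed here because the extracts differed. Cimicifugae and Citri differed in 45 members, each lower in Cimicifugae (14.5% of all genes), and Aconiti and Bupleuri in 36, each lower in Aconiti (4.87%). Banhasasim-tang and Yijung-tang differed in 10, with 9 lower in Banhasasim-tang (4.92% of all genes) and 1 higher (6.92%). Aconiti and Cimicifugae differed in 4, where 3.24% of all genes were higher and 2.82% lower in Aconiti. Between Banhasasim-tang and Yijung-tang, ECT2 was the member that differed upward, by 0.216 on the log2 scale. That call was lost with no filter (adjusted p = 0.073), with only the groups compared (0.0708) and with the GC trend removed (0.0619). Between Aconiti and Cimicifugae, CDC25B differed by 0.301, CCNA2 by 0.227, BUB1B by 0.196 and PRC1 by 0.155 on the log2 scale, each less lowered in Aconiti. The calls of BUB1B and PRC1 were lost with no filter (adjusted p = 0.207 and 0.408) and with only the groups compared (0.105 and 0.193). Aconiti and Cimicifugae belong to different title sets, so extract and set cannot be told apart in that comparison.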

How the results depend on the processing

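The counts of members called at 500 against 20 µg/mL of Cimicifugae (45), Aconiti (45) and Bupleuri (34) stayed within 1.5 times under every alternative run, with 45 to 45, 44 to 45 and 29 to 34 when each library was left out in turn. No log2 change that was called, in the reported fit or under the alternative, reversed in comparisons between doses or between extracts; changes called in neither are not counted here.

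The small counts moved, and they are given without the share of all genes called in the same refit. At 500 against 20 µg/mL Citri gave 0 with no filter and 2 with a mean CPM of at least 1, with the replicate block, with the replicate block within set and with the GC trend removed, and 0 to 1 over left-out libraries. Yijung-tang gave 2 with the replicate block within set, 0 with only the groups compared, and 0 to 3 over left-out libraries. Banhasasim-tang gave 17 with the GC trend removed. At 100 against 20 µg/mL Cimicifugae gave 1 with no filter (UBE2C, not among the 2 reported) or the GC trend removed, 5 with DESeq2, 6 with the replicate block within set or only the groups compared, and 1 to 2 over left-out libraries. Aconiti gave 7 with DESeq2 or the replicate block, 9 with the block within set and 10 with the GC trend removed. Yijung-tang gave 2 with no filter, DESeq2 or the block within set, 0 with only the groups compared, and 0 to 1 over left-out libraries. Of the interactions, Banhasasim-tang minus Yijung-tang gave 5 with only the groups compared, and Aconiti minus Cimicifugae 2 with the GC trend removed and 2 to 4 over left-out libraries. Replicate numbers did not pair the libraries (correlations of same-numbered deviations from -0.073 to 0.206, in no comparison all over 0.1), so the block stays an alternative.

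Vehicle comparisons moved most with the GC trend removed, and are again given without the share of all genes called. Median log2 changes at 500 µg/mL were then -0.704 with Cimicifugae, -0.221 with Bupleuri, 0.018 with Yijung-tang and -0.061 with Banhasasim-tang, and calls 10 with Yijung-tang and 14 with Banhasasim-tang. At 20 µg/mL medians were 0.029 with Cimicifugae, 0.047 with Aconiti, 0.010 with Yijung-tang and 0.010 with Banhasasim-tang, and calls 7 with Citri, 5 with Cimicifugae, 3 with Bupleuri, 9 with Yijung-tang and 6 with Banhasasim-tang. With only the groups compared, Cimicifugae at 20 µg/mL gave 16. Over left-out libraries the calls at 500 µg/mL ranged from 4 (without Citri 500 µg/mL replicate 3) to 12 with Citri and from 13 (without Yijung-tang 500 µg/mL replicate 1) to 23 with Yijung-tang, and the Citri median from -0.023 (without vehicle replicate 2) to 0.030. At 20 µg/mL they ranged from 6 (without Citri 20 µg/mL replicate 2) to 12 with Citri, from 3 (without vehicle replicate 2) to 7 with Cimicifugae, from 6 (without vehicle replicate 2) to 13 with Bupleuri and from 9 (without Aconiti 20 µg/mL replicate 3) to 18 with Aconiti. They were 7 for Citri without 20 µg/mL replicate 3 or vehicle replicate 2, 4 for Cimicifugae and 8 for Bupleuri without 20 µg/mL replicate 1 of each.

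Some log2 changes against vehicle that were called in either fit reversed, all with the GC trend removed; the cause was not tested. At 500 µg/mL these were CDC25B -0.129, ECT2 0.101 and KIF20B 0.030 with Bupleuri, CDC25B -0.005 with Aconiti, and ANLN 0.111, CDC25B -0.009 and CDC20 -0.163 with Banhasasim-tang. With Yijung-tang they were ANLN 0.134, HMMR 0.064, ECT2 0.018, CDC20 -0.011, KIF14 0.008, TOP2A 0.036, KIF11 0.042, KIF20B 0.184, CENPE 0.179, BUB1 0.103 and CDK1 0.070. At 20 µg/mL they were TOP2A 0.005 with Citri, DLGAP5 0.008 and TOP2A 0.021 with Bupleuri, and ANLN 0.134, ECT2 0.051, DLGAP5 0.019 and TOP2A 0.023 with Aconiti. With Yijung-tang they were DLGAP5 0.021, TOP2A 0.041, KIF20B 0.219 and PLK1 -0.004. With Banhasasim-tang they were ANLN 0.120, HMMR 0.168, CDC25B -0.035, CDC20 -0.030, DLGAP5 0.010, KIF11 0.043, KIF20B 0.158, CENPE 0.234 and CCNA2 0.103. The number of libraries, 3 per group, and their totals limit how small a change at 100 µg/mL can be called.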
